A study of Mus musculus with 19 samples.

Results

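Nptx1, Gas1, Ranbp3l, Olfml3, Kif26b, Daam2, Paqr7, Arhgap18, Spon2 and Kcnj2 are 10 genes of C2C12 cells, a mouse myoblast line, out of 55401 gene identifiers in the count tables. They were picked from these same data for a low level under the calcium pump inhibitor thapsigargin and for their level after the drug was removed, compared with each vehicle group. The values of those comparisons chose the genes, so they are given below as a description and carry no test. All 10 had enough reads to enter the fit across 18039 genes.

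Polyadenylated RNA was sequenced in 19 libraries, and every group is the same unmodified cell line. Thapsigargin at 100 nM was given for 2 h (3 libraries), 6 h (3 libraries) or 12 h (2 libraries), and the vehicle DMSO alone for 2 h (3), 6 h (3) or 12 h (2). A recovery group of 3 libraries had 6 h of the drug followed by 48 h without it. Vehicle cells kept as long as the recovery cells are not among the groups, and what drug removal did cannot be told apart from the time the cells were kept. Whether replicates came from separate cultures is not stated in the labels, and p-values may then measure technical spread alone. A line in culture is also a limited model: in bulk RNA of this kind, fewer cells of a type and less RNA per cell cannot be told apart.

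Thapsigargin blocks the pump that loads calcium into the endoplasmic reticulum, and emptying that store disturbs the folding of proteins made there. Cells answer by slowing translation and by switching on stress genes such as Ddit3 and Trib3. Proteins that are secreted or sit in the cell membrane pass through that store, and 6 of the 10 genes encode such proteins, while the other 4 act on signals and the cytoskeleton inside the cell. Gas1 owes its name to growth arrest, in which fibroblasts accumulate it.

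The genes lie on 9 chromosomes, and Nptx1 and Kcnj2 share chromosome 11. On GRCm38 Nptx1 (ENSMUSG00000025582.4) spans chr11:119538719-119547753, Gas1 (ENSMUSG00000052957.8) spans chr13:60174405-60177365 and Ranbp3l (ENSMUSG00000048424.17) spans chr15:8967949-9067335. Olfml3 (ENSMUSG00000027848.12) lies at chr3:103722222-103738001, Kif26b (ENSMUSG00000026494.12) at chr1:178529125-178939200 and Daam2 (ENSMUSG00000040260.8) at chr17:49456022-49564343. Paqr7 (ENSMUSG00000037348.15) lies at chr4:134496697-134510235, Arhgap18 (ENSMUSG00000039031.16) at chr10:26753421-26918648, Spon2 (ENSMUSG00000037379.7) at chr5:33198184-33218455 and Kcnj2 (ENSMUSG00000041695.2) at chr11:111066164-111076821. All are protein coding, and counts were taken over the whole gene. Gas1 has a single exon and Daam2 has 24. Their median transcript length was 4434 bases, against 3362 for the 13998 tested protein-coding genes, with Kif26b (13749 bases) and Daam2 (8956) the longest and Spon2 (2045) the shortest. Only Gas1 and Kif26b overlap annotated genes. The lincRNA Gm48488, opposite Gas1, held 142 reads over all libraries against 37307 for Gas1, and the 3 genes within Kif26b held at most 1 read.

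RefSeq start regions on GRCm38.p6 were found for 8 of the 10 genes, the exceptions being Nptx1 and Spon2, and the window of Arhgap18 lies 19091 bases from the GENCODE start. The 250 bases before the start were searched on both strands for TGATGNAA (the core of the composite element bound by ATF4 with CEBP partners), CATTCC (bound by TEAD factors), CANNTG (the E-box of MyoD and its relatives), CCAAT and TATAAA. Shown are Daam2, whose levels followed the other members most closely, Olfml3, a secreted member, Ranbp3l, the member whose vehicle level differed most between 6 and 2 h, and Kif26b, which followed the others least. Capitals mark any match to a searched motif.
Daam2, chr17:49564338-49564587, minus strand: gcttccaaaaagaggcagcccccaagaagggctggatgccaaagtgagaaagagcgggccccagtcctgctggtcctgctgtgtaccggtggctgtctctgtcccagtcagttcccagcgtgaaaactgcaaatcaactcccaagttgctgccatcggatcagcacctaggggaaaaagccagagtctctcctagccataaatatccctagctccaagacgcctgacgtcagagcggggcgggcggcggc
Olfml3, chr3:103738002-103738251, minus strand: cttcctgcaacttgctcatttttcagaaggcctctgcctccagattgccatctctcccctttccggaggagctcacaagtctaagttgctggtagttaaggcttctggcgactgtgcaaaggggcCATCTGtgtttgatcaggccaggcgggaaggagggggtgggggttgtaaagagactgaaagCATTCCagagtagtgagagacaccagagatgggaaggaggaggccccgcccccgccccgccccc
Ranbp3l, chr15:8967699-8967948, plus strand: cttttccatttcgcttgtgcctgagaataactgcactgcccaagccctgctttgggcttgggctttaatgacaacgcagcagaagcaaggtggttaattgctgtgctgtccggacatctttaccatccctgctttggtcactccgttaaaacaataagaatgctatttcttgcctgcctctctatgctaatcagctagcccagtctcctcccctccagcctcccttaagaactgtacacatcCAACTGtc
Kif26b, chr1:178528875-178529124, plus strand: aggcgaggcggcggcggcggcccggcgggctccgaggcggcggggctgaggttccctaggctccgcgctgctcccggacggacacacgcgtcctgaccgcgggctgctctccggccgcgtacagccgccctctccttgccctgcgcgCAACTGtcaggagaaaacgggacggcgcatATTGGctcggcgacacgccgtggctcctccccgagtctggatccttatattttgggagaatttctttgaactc
No window of the 8 genes held TGATGNAA or TATAAA, which stood in 3.45% and 12.4% of all 32851 windows of this length. CATTCC (12.6% of all windows) was found upstream of Olfml3 alone. CCAAT (33.8%) was found upstream of Kif26b, where it reads ATTGG on the printed strand, and in the windows of Kcnj2 and Gas1. E-boxes (66.2%) stood in windows of Kif26b, Olfml3, Paqr7, Arhgap18, Kcnj2 and Ranbp3l, but in none of Gas1 and Daam2. The Kif26b window held 68.4% G and C with a CpG ratio of 1.09 (observed over expected), against medians of 52.4% and 0.373 over all windows. A match describes letters and no site of binding.

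Gene reads per library numbered 32.13 to 40.96 M (mega) at 2 h, 31.66 to 36.2 M at 6 h, 17.31 to 21.83 M at 12 h, and 23.59, 38.31 and 37.09 M in recovery. Mitochondrial transcripts took 14.9% of gene reads in replicate 1 of recovery and 15.8% in replicate 3 of DMSO at 2 h, and 1.41% to 3.07% elsewhere. Libraries also differed by transcript length. Set against the mean of all libraries, the log2 difference of long genes (4809 bases or more) minus short genes (2175 or fewer) was 0.41 to 0.97 in libraries of 2 and 12 h, and -1.32 to 0.00 in those of 6 h and recovery. Ddit3 was higher under thapsigargin by 4.35, 4.44 and 4.01 (log2) and Trib3 by 6.19, 4.71 and 4.55 at 2, 6 and 12 h (edgeR adjusted p at most 0.0059). All 5 myoblast markers were at 1 CPM (counts per megaread, on TMM-scaled library sizes) or more in every group. Their sum at 12 h was 740 to 759 CPM in DMSO and 850 to 938 CPM in thapsigargin. In the groups of 2 h, 6 h and recovery it was 1838 to 5375 CPM. Of the markers of other cell types, Adgre1 of macrophages and Epcam of epithelium had no read. The 5 macrophage markers summed to 2.41 to 11.2 CPM over all groups, with 1 of them at 1 CPM or more in each group. The 4 endothelial markers summed to 2.64 to 4.79 CPM in thapsigargin at 6 h against 0.514 to 0.610 CPM in DMSO at 6 h. The 4 epithelial markers summed to 13.3 to 24.3 CPM in thapsigargin at 6 h against 0.685 to 2.61 CPM in DMSO at 6 h. The part of all these marker differences in the results below was not tested.

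Thapsigargin and DMSO were less than 2-fold apart in 9 of the 10 genes at 2 h, and by 12 h all 10 were far lower under the drug. At 2 h the libraries of drug and vehicle did not overlap in 8 genes, 6 of them lower under thapsigargin (19.2% of all tested genes) and 2 higher, Kif26b and Kcnj2 (19.3%). None was 2-fold or more lower under thapsigargin at 2 h, 9 were at 6 h and 10 at 12 h. The same was true of 5.58%, 10.8% and 13.3% of all tested genes, and since these comparisons chose the members nothing is read from the difference. Their median log2 difference was -0.26 at 2 h, -2.28 at 6 h and -4.05 at 12 h, beside -0.04, 0.01 and 0.01 over all genes. In recovery 9 of the 10 were at least 2-fold above thapsigargin at 6 h, as were 16.9% of all genes, and Kif26b was not. The label under which these genes were gathered, silenced and then restored, held for Nptx1 most plainly. For Kif26b it did not hold at 2 or 6 h. The Kif26b mean in thapsigargin at 12 h (2.43 CPM) was near that of DMSO at 2 h (2.30 CPM). Its recovery mean (4.84 CPM) was near that of thapsigargin at 6 h (4.73 CPM). Kcnj2 went with the label only in part, being above vehicle at 2 h and in recovery at 27.2% of the DMSO mean of 12 h.

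**Figure D1:**
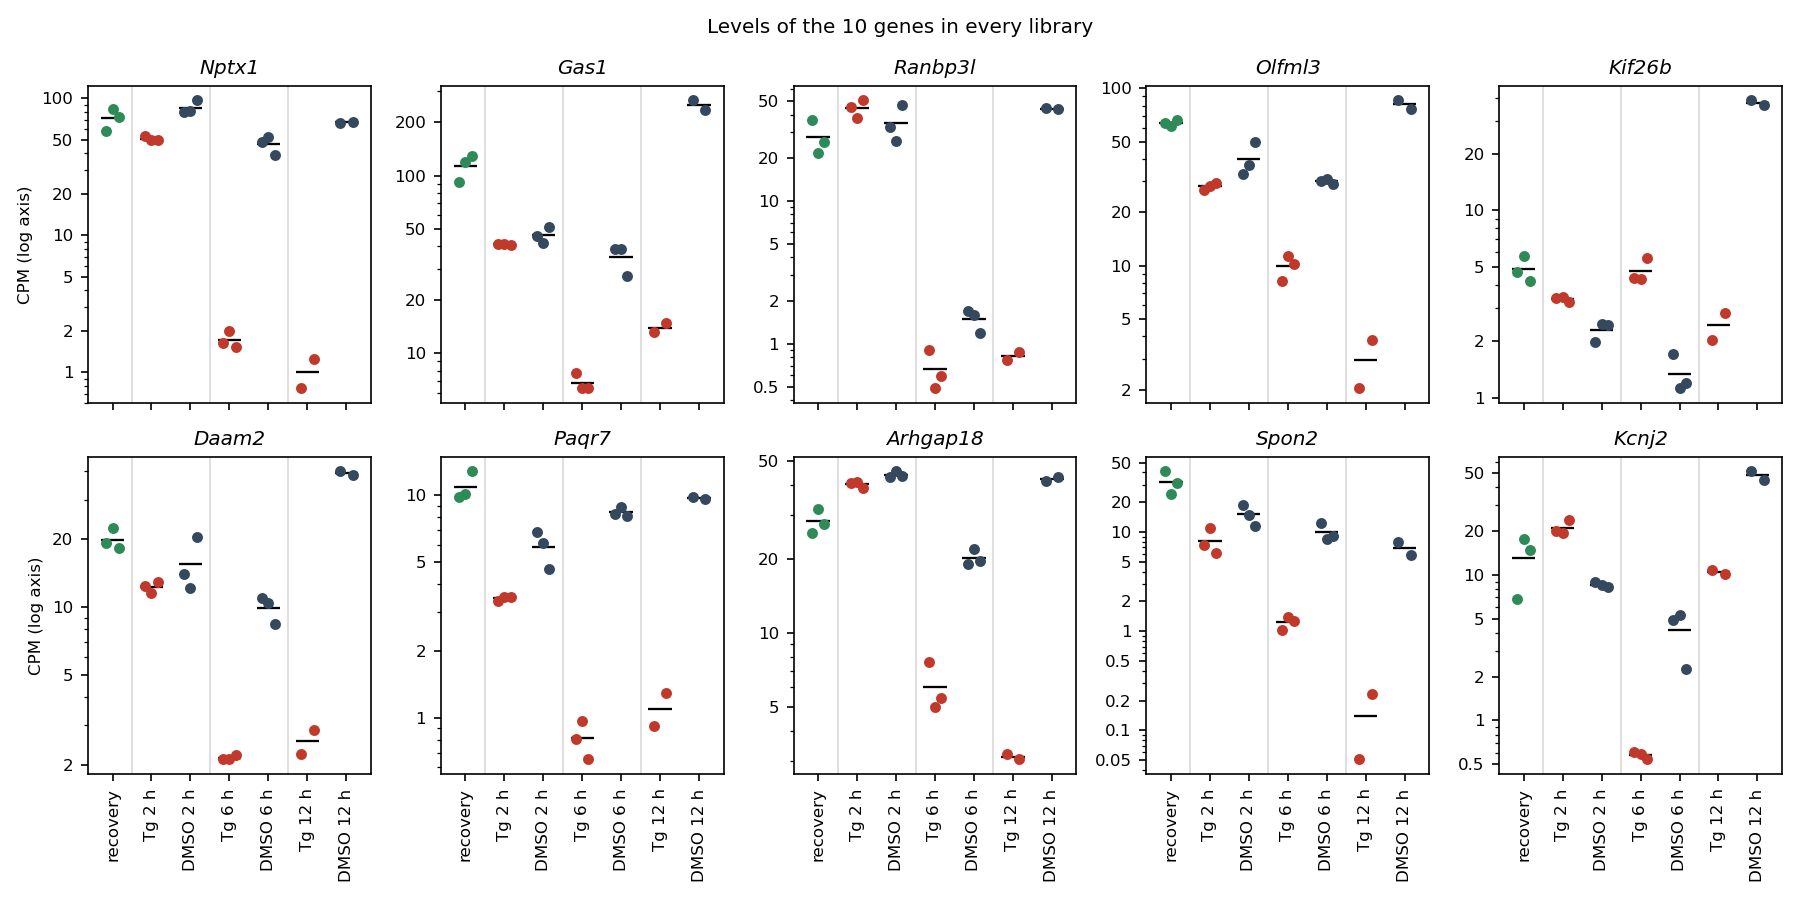
CPM of each gene in every library, on log axes, with recovery in green, thapsigargin (Tg) in red and DMSO in dark blue at 2, 6 and 12 h; points are libraries and bars are group means. Thapsigargin points lie far below DMSO points at 12 h in all 10 panels, while at 6 h Kif26b lies above and Ranbp3l is close to 1 CPM in both groups.

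Of the secreted proteins, Nptx1 (neuronal pentraxin 1, which gathers glutamate receptors at synapses in neurons) gave the widest separation. At 2 h it held 53.2, 49.2 and 49.5 CPM in thapsigargin against 79.9, 80.5 and 96.5 CPM in DMSO. At 6 h it held 1.64, 2.01 and 1.53 CPM in thapsigargin against 47.7, 52.3 and 38.7 CPM in DMSO. The groups did not overlap at either time, and the drug mean at 6 h was 3.74% of the vehicle mean. The 12 h libraries held 0.764 and 1.25 CPM in thapsigargin and 66.4 and 67.2 CPM in DMSO. The log2 differences were -0.76 ± 0.19, -4.74 ± 0.23 and -6.04 ± 0.31 (SE of the fit) at 2, 6 and 12 h. By its log2 difference at 6 h Nptx1 ranked 15 from the lowest of 18039 genes. Recovery libraries held 57.5, 83.7 and 73.0 CPM, 41.3 times the mean of thapsigargin at 6 h. They overlapped DMSO at 2 h and at 12 h and stood above all of DMSO at 6 h, with log2 differences of -0.26 ± 0.19, 0.10 ± 0.22 and 0.63 ± 0.19. With offsets for transcript length the first of these was 0.42 and the second 0.68, and total-count scaling made the second -0.20.

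Spon2 (spondin 2 or mindin, a matrix protein of the F-spondin family) stood higher in recovery than in any other group. Its libraries held 7.47, 11.0 and 6.19 CPM in thapsigargin against 18.9, 14.8 and 11.6 CPM in DMSO at 2 h. At 6 h there were 1.03, 1.39 and 1.28 CPM in thapsigargin and 12.3, 8.56 and 9.09 CPM in DMSO. Drug and vehicle libraries were separate at both times. At 12 h the thapsigargin libraries had only 1 and 5 reads of the gene, and those of DMSO had 324 together, which is a 48.1-fold lower level with an exact counting interval of 21.8 to 132. The fitted log2 difference there was -5.55 ± 0.53, and without replicate 2 or replicate 1 of thapsigargin at 12 h it was -6.98 or -4.89. Recovery held 40.9, 24.0 and 31.4 CPM, above every DMSO library of every time, by 1.09 ± 0.30, 1.68 ± 0.31 and 2.21 ± 0.37 (log2) against 2, 6 and 12 h. The highest of these 3 libraries is the one of high mitochondrial share, and without it and its counterpart in DMSO at 2 h the first difference was 0.70.

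Olfml3 (a secreted glycoprotein with an olfactomedin domain) was lower by a growing margin. It held 26.9, 28.0 and 29.4 CPM in thapsigargin against 33.0, 36.8 and 49.8 CPM in DMSO at 2 h. It held 8.19, 11.3 and 10.3 CPM in thapsigargin against 30.0, 30.7 and 28.9 CPM in DMSO at 6 h. No drug library reached a vehicle library at these times. At 12 h the values were 2.04 and 3.84 CPM in thapsigargin and 85.5 and 76.8 CPM in DMSO, a 27.6-fold lower mean. The log2 differences at 2, 6 and 12 h were -0.51 ± 0.21, -1.59 ± 0.22 and -4.78 ± 0.31. Recovery gave 64.1, 61.7 and 65.9 CPM, between the DMSO libraries of 12 h above and those of 2 and 6 h below, with no overlap. The recovery level differed by 0.68 ± 0.21 from DMSO at 2 h and by -0.34 ± 0.23 from DMSO at 12 h, and offsets for transcript length made these 1.47 and 0.34.

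Among the proteins of the cell surface, Gas1 (a lipid-anchored co-receptor for Hedgehog ligands, related in sequence to the receptors of glial cell line-derived factors) had the highest vehicle level per length of transcript at 12 h. At 2 h it held 41.3, 41.3 and 40.5 CPM in thapsigargin and 46.0, 41.8 and 51.6 CPM in DMSO. The gap between the closest libraries there was small, and total-count scaling turned its log2 difference of -0.18 ± 0.18 into 0.05. At 6 h Gas1 held 7.77, 6.35 and 6.35 CPM in thapsigargin against 38.7, 38.5 and 27.2 CPM in DMSO. At 12 h it held 13.1 and 14.8 CPM in thapsigargin against 265 and 235 CPM in DMSO. Both drug groups were far below their vehicle, by -2.35 ± 0.19 and -4.16 ± 0.25 (log2), yet the drug level itself was no lower at 12 h than at 6 h. Recovery libraries held 92.3, 119 and 129 CPM, which is 2.44 and 3.26 times the DMSO means of 2 h and 6 h and 45.4% of the DMSO mean of 12 h. Gas1 in recovery therefore lay within 2-fold of no vehicle group.

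Paqr7 (membrane progestin receptor alpha, a 7-pass membrane protein) had the most even vehicle levels in the main fit. With offsets for transcript length Nptx1 was more even, its widest step between vehicle groups being -0.26 beside 0.74 for Paqr7 (log2). The 2 h libraries of Paqr7 held 3.37, 3.49 and 3.50 CPM in thapsigargin against 6.82, 6.11 and 4.69 CPM in DMSO. The 6 h libraries held 0.807, 0.972 and 0.652 CPM in thapsigargin against 8.27, 8.88 and 8.11 CPM in DMSO. The separation was complete at both times and the drug mean at 6 h was 9.63% of the vehicle mean. At 12 h there were 0.917 and 1.29 CPM in thapsigargin and 9.81 and 9.59 CPM in DMSO. The log2 difference was -0.77 ± 0.21 at 2 h, -3.38 ± 0.23 at 6 h and -3.13 ± 0.29 at 12 h. Recovery gave 9.83, 10.1 and 12.8 CPM, the highest group mean of all 7. That mean was 1.86, 1.30 and 1.13 times the DMSO means of 2, 6 and 12 h. Total-count scaling turned its log2 difference from DMSO at 12 h, 0.17 ± 0.23, into -0.16.

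Kcnj2 (the inward rectifier potassium channel Kir2.1, whose hyperpolarizing current precedes fusion in human myoblasts) stood on opposite sides of vehicle at 2 h and at the later times. At 2 h it was above vehicle, with 19.9, 19.4 and 23.8 CPM in thapsigargin against 8.94, 8.50 and 8.32 CPM in DMSO. At 6 h it was below, with 0.605, 0.590 and 0.539 CPM in thapsigargin against 4.91, 5.33 and 2.25 CPM in DMSO. These log2 differences were 1.29 ± 0.31 and -2.84 ± 0.35, and the groups were separate each time. At 12 h the libraries held 10.8 and 10.2 CPM in thapsigargin and 51.4 and 45.1 CPM in DMSO, a log2 difference of -2.20 ± 0.39. Both drug libraries of 12 h stood above every drug library of 6 h and every DMSO library of 2 h. Recovery libraries were uneven at 6.85, 17.6 and 14.9 CPM, the lowest being the one of high mitochondrial share. Their mean was 1.53 times that of DMSO at 2 h, 3.15 times that at 6 h and 27.2% of that at 12 h, and offsets for transcript length put the log2 difference from DMSO at 2 h at 1.27.

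The intracellular members act on signal transport and the cytoskeleton. Ranbp3l (a Ran-binding protein that exports BMP-activated SMAD proteins from the nucleus) had vehicle levels far apart. It held 45.3, 38.1 and 50.2 CPM in thapsigargin against 32.5, 26.1 and 46.8 CPM in DMSO at 2 h, and the groups overlapped. At 6 h it held 0.908, 0.486 and 0.595 CPM in thapsigargin against 1.68, 1.59 and 1.19 CPM in DMSO. The 6 h groups did not overlap, but both were close to 1 CPM, and the log2 difference was -1.15 ± 0.30. At 12 h there were 0.764 and 0.878 CPM in thapsigargin against 44.5 and 43.6 CPM in DMSO, a 53.6-fold lower mean and a log2 difference of -5.74 ± 0.41. Recovery gave 36.9, 21.4 and 25.7 CPM, which overlapped DMSO at 2 h and was 18.9 times the mean of DMSO at 6 h. Against DMSO at 12 h it stood at -0.66 on the log2 scale, which total-count scaling made -1.11. Ranbp3l in recovery was thus near its vehicle level of 2 h and far above that of 6 h.

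Daam2 (a formin that links Dishevelled to actin assembly in Wnt signalling) was the member closest to the common pattern. The 2 h libraries held 12.4, 11.6 and 13.0 CPM in thapsigargin and 14.0, 12.2 and 20.6 CPM in DMSO, with overlap. Those of 6 h held 2.14, 2.12 and 2.21 CPM in thapsigargin and 11.0, 10.5 and 8.46 CPM in DMSO, with none. The 3 drug libraries of 6 h were close to each other (SD 0.0480 CPM). At 12 h Daam2 held 2.24 and 2.87 CPM in thapsigargin against 40.0 and 38.6 CPM in DMSO. Its log2 differences were -0.34 ± 0.20, -2.21 ± 0.21 and -3.94 ± 0.28. Recovery held 19.2, 22.4 and 18.3 CPM, 1.28 times the DMSO mean of 2 h, 2.00 times that of 6 h and 50.8% of that of 12 h. Offsets for transcript length moved the recovery difference against DMSO at 2 h to 1.45 (log2), and that against DMSO at 12 h, -0.98, to 0.03, while total-count scaling made the second -1.31.

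Arhgap18 (a GTPase-activating protein that turns off RhoA) differed little from vehicle at 2 h. It held 40.7, 40.9 and 38.9 CPM in thapsigargin against 43.1, 45.3 and 43.3 CPM in DMSO, a log2 difference of -0.13 ± 0.17 that total-count scaling made 0.09. At 6 h it held 7.61, 5.00 and 5.41 CPM in thapsigargin against 19.1, 21.9 and 19.6 CPM in DMSO. The vehicle was itself at 46.0% of its 2 h mean, and the drug mean lay at 29.7% of that vehicle. At 12 h the libraries held 3.21 and 3.05 CPM in thapsigargin and 41.4 and 43.1 CPM in DMSO. The log2 differences at 6 and 12 h were -1.75 ± 0.17 and -3.75 ± 0.23. Recovery gave 25.5, 31.8 and 27.8 CPM, above DMSO at 6 h and below DMSO at 2 h and 12 h with no overlap, and within 2-fold of all 3.

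Kif26b (an atypical kinesin that acts with Wnt5a and Ror receptors in cell polarity) went against the label at the earlier times. It held 3.42, 3.44 and 3.23 CPM in thapsigargin against 1.99, 2.47 and 2.43 CPM in DMSO at 2 h. It held 4.36, 4.31 and 5.53 CPM in thapsigargin against 1.71, 1.12 and 1.19 CPM in DMSO at 6 h. Every drug library was above every vehicle library at both times, by 0.55 ± 0.22 and 1.82 ± 0.23 (log2). At 12 h it held 2.04 and 2.82 CPM in thapsigargin against 38.6 and 36.3 CPM in DMSO, or -3.94 ± 0.29. Drug libraries thus held 2.04 to 5.53 CPM at all times, and no other group came near the vehicle level of 12 h. Recovery held 4.67, 5.69 and 4.17 CPM, which overlapped thapsigargin at 6 h (0.04 ± 0.21) and was 12.9% of the DMSO mean of 12 h. With offsets for transcript length the recovery difference from DMSO at 12 h went to -1.79 in place of -2.95 (log2), and that from DMSO at 2 h to 2.22 in place of 1.08.

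**Figure D2:**
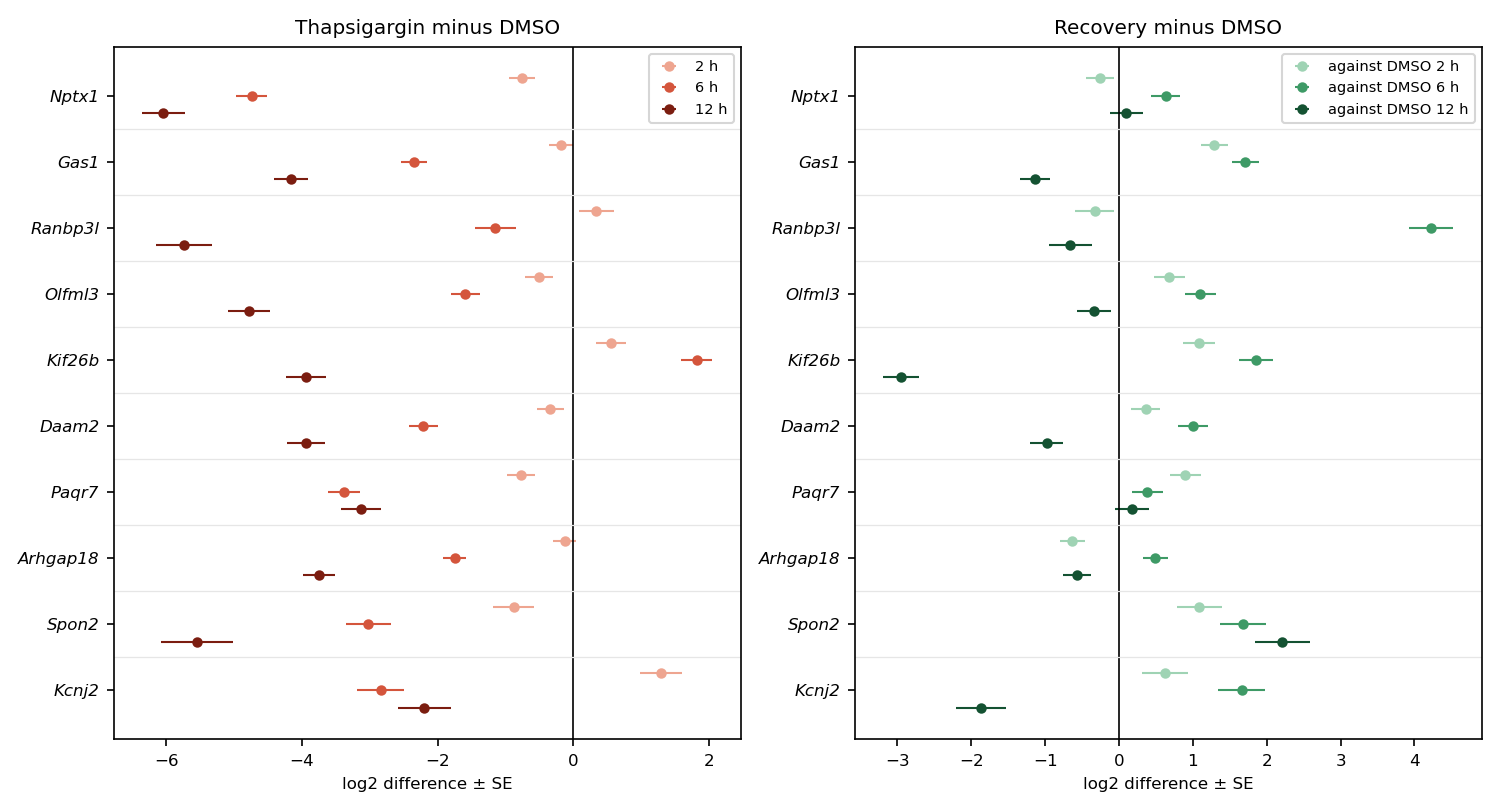
Log2 difference with SE of thapsigargin minus DMSO at 2, 6 and 12 h (left) and of recovery minus each DMSO group (right) for the 10 genes. At 12 h every point on the left lies below -2, while on the right some genes lie on different sides of 0 depending on the vehicle group, as Ranbp3l does at 4.23 and -0.66, and Spon2 lies above 0 against each group.

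The level in recovery was read against each vehicle group in turn. Against DMSO at 2 h, 7 of the 10 genes were within 2-fold, as were 51.0% of all tested genes, and offsets for transcript length left 4 and total-count scaling gave 9. The other 3 of the main count, Gas1, Kif26b and Spon2, stood higher. Against DMSO at 12 h, 6 were within 2-fold, with a background of 55.2%, and total-count scaling left 4 by moving Ranbp3l to -1.11 and Daam2 to -1.31 (log2). Gas1, Kcnj2 and Kif26b were lower, at 45.4%, 27.2% and 12.9% of the DMSO mean, and Spon2 stood at 4.64 times that mean. Against DMSO at 6 h only 4 were within 2-fold (Nptx1, Daam2, Paqr7 and Arhgap18), although 85.7% of all tested genes were. In all 10 members every recovery library was above every DMSO library of 6 h, which held for 4.71% of all tested genes. These counts rest on the comparisons that chose the members, and nothing further is read from them.

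Genes that were not members were counted as well. Outside the 10, 228 genes were called lower by at least 4-fold under thapsigargin at 6 h (edgeR adjusted p under 0.05). In recovery 120 of them (52.6%) lay within 2-fold of DMSO at 2 h, 60 lay lower and 48 lay higher. Within 2-fold of DMSO at 12 h lay 118 (51.8%). Of all tested genes 51.0% and 55.2% lay as close to DMSO at 2 h and 12 h. The shares of the strongly lowered genes are near these, and nothing is read from them. By log2 difference alone, with no p, 6 members were as low at 6 h (Nptx1, Gas1, Daam2, Paqr7, Spon2 and Kcnj2). Of these 6, 4 lay within 2-fold of DMSO at 2 h and 3 within 2-fold of DMSO at 12 h.

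The vehicle groups themselves were not alike. The level of each vehicle group entered the choice of members, so the differences between these groups are also a description with no test. Ranbp3l differed most of the 10 between DMSO at 6 h and at 2 h, with 1.68, 1.59 and 1.19 CPM at 6 h against 32.5, 26.1 and 46.8 CPM at 2 h (-4.56 ± 0.31, log2). Arhgap18 (-1.12 ± 0.17), Kcnj2 (-1.04 ± 0.31), Nptx1 (-0.89 ± 0.19), Kif26b (-0.77 ± 0.22) and Daam2 (-0.64 ± 0.20) also lay lower at 6 h, as did Spon2 (-0.60 ± 0.30), Gas1 (-0.42 ± 0.18) and Olfml3 (-0.42 ± 0.21), and Paqr7 lay higher by 0.52 ± 0.21. Offsets for transcript length turned Kif26b and Daam2, the longest members, to 0.50 each and Olfml3 to 0.35, and left Nptx1 at -0.20 and Kcnj2 at -0.33.

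Between 12 h and 6 h of DMSO the members with the widest steps were Ranbp3l (4.88 ± 0.32, log2) and Kif26b (4.80 ± 0.26), both higher at 12 h. Kcnj2 stood higher by 3.53 ± 0.35, Gas1 by 2.85 ± 0.20, Daam2 by 1.97 ± 0.22, Olfml3 by 1.44 ± 0.23 and Arhgap18 by 1.06 ± 0.19. The differences of Nptx1 (0.53 ± 0.21), Paqr7 (0.20 ± 0.23) and Spon2 (-0.53 ± 0.34) were smaller. With offsets for transcript length Kif26b stood at 3.52, Kcnj2 at 2.91, Daam2 at 0.92, Olfml3 at 0.78 and Nptx1 at -0.07.

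The vehicle groups of 12 h and 2 h share a like trend with transcript length. Kif26b held 38.6 and 36.3 CPM in DMSO at 12 h against 1.99, 2.47 and 2.43 CPM in DMSO at 2 h, a log2 difference of 4.02 ± 0.25. Kcnj2 (2.49 ± 0.34), Gas1 (2.43 ± 0.20), Daam2 (1.33 ± 0.22) and Olfml3 (1.02 ± 0.23) also stood higher at 12 h. In these 5 genes the vehicle level that thapsigargin at 12 h was set against was thus at least 2-fold above that of 2 h.

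**Figure D3:**
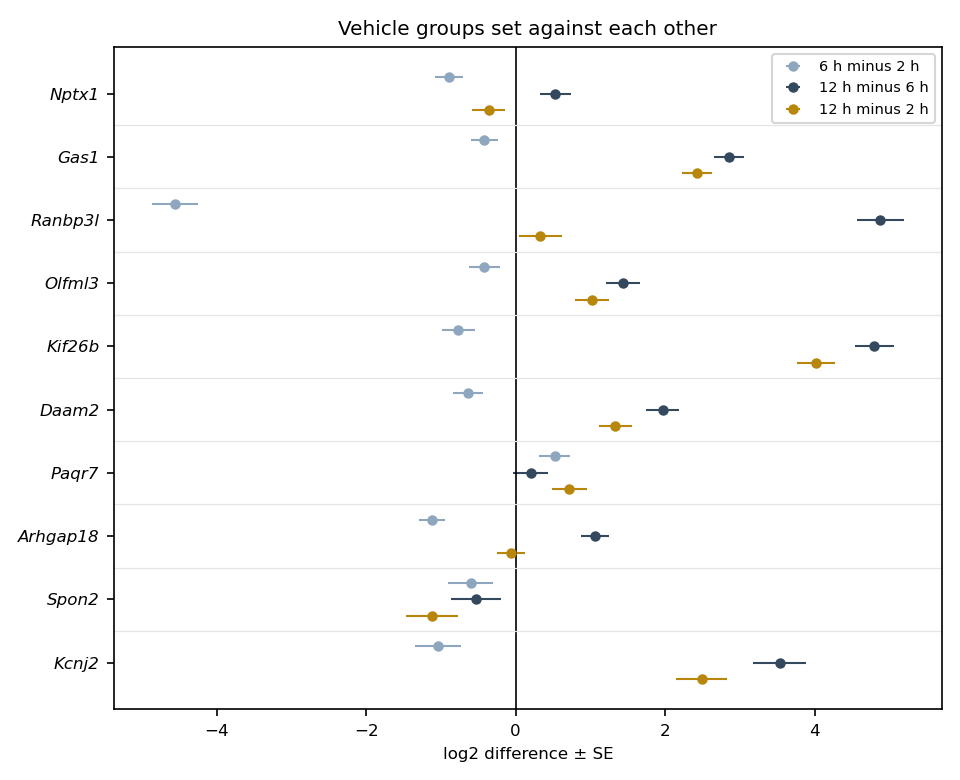
Log2 difference with SE between DMSO groups for the 10 genes, 6 h minus 2 h, 12 h minus 6 h and 12 h minus 2 h. Ranbp3l lies at -4.56 and 4.88 for the first pair and returns to 0.33 for the last, while Kif26b ends at 4.02.

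Per length of transcript the levels of the members differed widely, and their order changed with time. In DMSO at 2 h Nptx1 (16.4 ± 1.80 CPM per kb, SD) and Gas1 (15.7 ± 1.65) led, with Arhgap18 (12.0 ± 0.331) and Ranbp3l (10.3 ± 3.13) next, and Kif26b (0.167 ± 0.0195) was last. In DMSO at 12 h Gas1 alone led with 84.4 ± 7.30 CPM per kb, ahead of Olfml3 (14.8 ± 1.11), Ranbp3l (13.0 ± 0.193) and Nptx1 (12.8 ± 0.114). In thapsigargin at 12 h Gas1 was still first at 4.72 ± 0.416 CPM per kb, followed by Kcnj2 at 1.93 ± 0.0695, and Spon2 was last at 0.0690 ± 0.0623. In recovery the first was again Gas1 (38.3 ± 6.37), and Spon2 (15.7 ± 4.14) and Nptx1 (13.7 ± 2.52) came next with SDs that overlap.

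Across the 19 libraries the members followed each other to different degrees, which is given as a description because the libraries share groups and the members were picked for a like pattern. Pearson's r of log2 CPM with the mean of the other 9 was 0.99 for Daam2, 0.94 for Gas1, 0.92 for Olfml3, 0.91 for Nptx1 and 0.90 for Arhgap18. It was 0.85 for both Ranbp3l and Paqr7, 0.79 for Spon2, 0.69 for Kcnj2 and 0.32 for Kif26b. The closest pair was Gas1 and Daam2 at 0.97, and Kif26b with Spon2 was the least alike at 0.01. Among genes of at least 5 CPM that were not members, the 6 most like the mean pattern were Ddx11 and Jade2 (0.97 each), A4galt (0.96), and Col6a1, Pacs2 and Angpt1 (0.95 each). Ddx11 is a DNA helicase, Jade2 an E3 ligase subunit linked to histone marks, A4galt a glycosyltransferase, Col6a1 a chain of collagen VI, Pacs2 a sorting protein of the endoplasmic reticulum and Angpt1 a ligand of the receptor Tek. Their drug differences were of very unequal size. Col6a1 stood at -2.89 ± 0.21 and -3.83 ± 0.26 (log2) at 6 and 12 h and Angpt1 at -2.65 ± 0.32 and -5.52 ± 0.45, but Pacs2 at -0.15 ± 0.14 and -0.92 ± 0.17. Pearson's r takes no account of size, so a high r says nothing on how large a drug difference is.

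Each member was set beside its nearest relatives by sequence, 13 genes of which 9 had reads enough for a test. Nptx2, Olfml1, Kif26a and Paqr5 had too few reads in these cells. At 6 h 2 of the 9 were called lower and 2 higher, against 8.79% and 13.0% of all genes, and at 12 h 4 were lower and none higher, against 6.77% and 6.29%. Nptxr, the membrane-bound receptor form of neuronal pentraxin, averaged 24.2 ± 0.641 CPM in thapsigargin against 60.8 ± 4.70 CPM in DMSO at 6 h (SD, n = 3 each; -1.33 ± 0.18, edgeR adjusted p = 6.4e-05). It was also lower at 12 h (-1.12 ± 0.22, 0.0021) and held 68.3 ± 14.7 CPM in recovery. Kcnj12 (the channel Kir2.2) was lower at 6 h (-1.40 ± 0.34, edgeR adjusted p = 0.0076), and at 12 h it had no read in either thapsigargin library against 19 in DMSO, at least 5.64-fold lower by a floor of 3 counts over the group. Floors and counting intervals cover counting error only.

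Other relatives stood on the other side of vehicle from the member beside them, or on the same side by less. Spon1 (F-spondin) averaged 4.56 ± 1.66 CPM in thapsigargin against 1.32 ± 0.125 CPM in DMSO at 6 h and was called higher (1.79 ± 0.43, edgeR adjusted p = 0.007), while Spon2 was at -3.02. Daam1 was higher by 0.66 ± 0.21 (edgeR adjusted p = 0.032) beside Daam2 at -2.21, a call that 11 of 26 alternatives did not keep (up to 0.16). Gfra1 and Gfra2, relatives of Gas1, stood at 0.11 ± 0.43 and 0.14 ± 0.20 at 6 h and neither passed. Gfra2 was lower at 12 h (-0.96 ± 0.26, edgeR adjusted p = 0.019), and so was Paqr8 (-1.46 ± 0.37, 0.014), but leaving out any 1 of the 4 libraries of 12 h ended both calls (up to 0.18). Ranbp3 (-0.35 ± 0.24 at 6 h and -0.22 ± 0.30 at 12 h) and Arhgap28 (-0.35 ± 0.19 and -0.31 ± 0.23) did not pass at either time. Vehicle levels of the relatives differed too. In DMSO at 6 h, 5 of the 9 were called lower than at 2 h and 2 higher, against 25.0% and 24.6% of all genes. Daam1 (-1.35 ± 0.21, log2) and Spon1 (-1.08 ± 0.43) were among the lower.

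**Figure D4:**
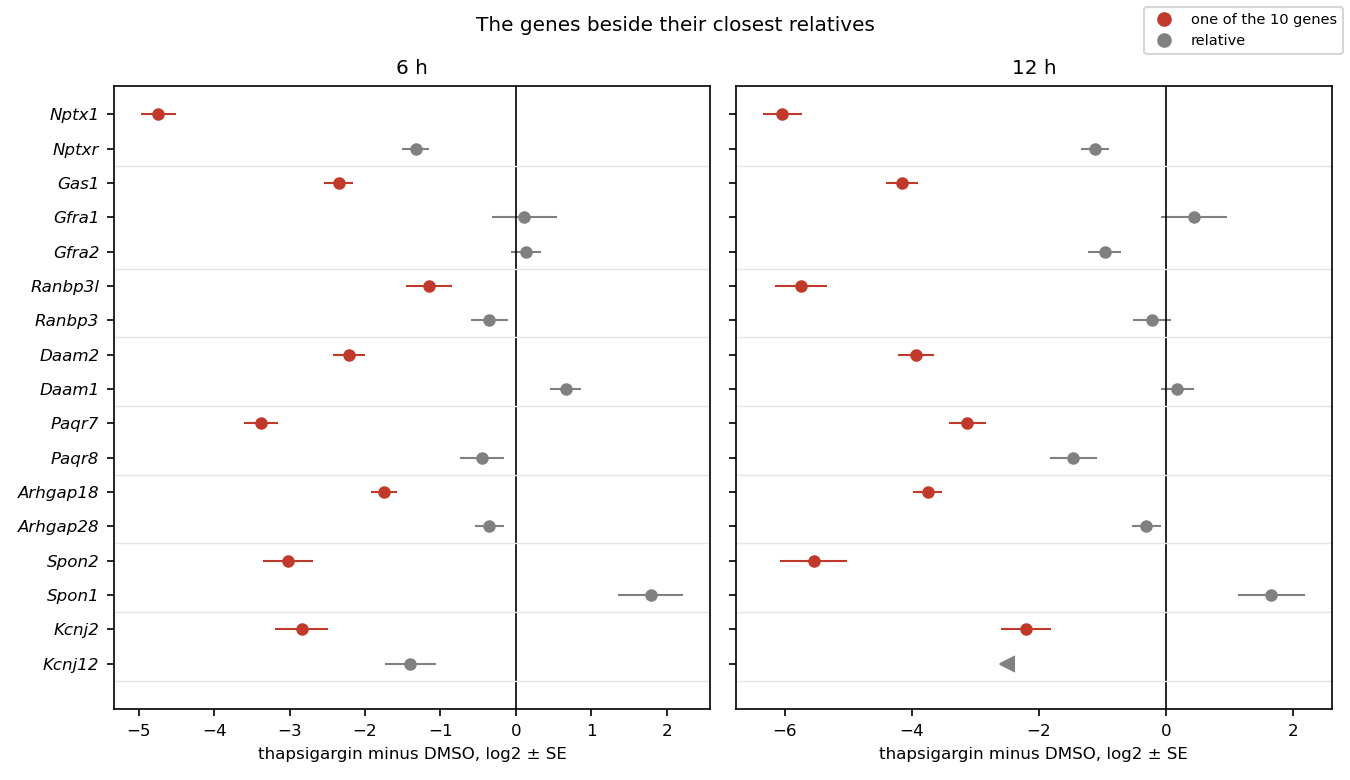
Log2 difference of thapsigargin minus DMSO with SE at 6 h (left) and 12 h (right) for the 8 members that have a tested relative, in red, and those relatives in grey; the triangle marks the smallest decrease of Kcnj12 that a floor of 3 counts allows at 12 h, where it had no read under the drug. The 8 members lie below -1 at both times, while Spon1, Daam1 and Gfra1 lie above 0.

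The other genes of pathways to which members belong were counted in lists. Of all tested genes 13.0% rose and 8.79% fell at 6 h, and 6.29% rose and 6.77% fell at 12 h. Rose and fell mean higher and lower than DMSO of the same time, and the vehicle groups differed too. In DMSO at 6 h, 25.0% of all tested genes were called lower than at 2 h and 24.6% higher. Of the Hedgehog list, for which Gas1 is a co-receptor, 16 of 18 genes were tested, and at 6 h 4 rose, 4 fell and 8 did not pass (median -0.18, beside 0.01 for all genes). The transcription factor Gli2 had 42 reads in thapsigargin against 1 in DMSO at 6 h, a ratio of 36.5 with an exact counting interval of 6.20 to 1476 (edgeR adjusted p = 0.0082). Lrp2, an endocytic co-receptor, rose by 2.11 ± 0.37 (edgeR adjusted p = 6.8e-04). Disp2, of the family that releases the ligand, fell by 1.22 ± 0.37 (edgeR adjusted p = 0.026), and the signal transducer Smo fell by 1.02 ± 0.25 (0.0079). The call of Disp2 was lost in 6 of 26 alternatives (up to 0.15). These were total-count scaling (0.13), no low-count filter (0.15) and leaving out any 1 of 4 of the 6 libraries of 6 h (up to 0.11). Total-count scaling also ended the call of Smo (0.16). At 12 h 2 rose, 2 fell and 12 did not pass. Between vehicle groups, 8 of the 16 were called lower and 1 higher in DMSO at 6 h than at 2 h. Lrp2 (-1.02 ± 0.37, log2) and Disp2 (-1.15 ± 0.35) were among the lower.

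Ranbp3l acts on the BMP-SMAD pathway, of which 28 of 30 genes were tested. At 6 h 7 rose, 1 fell and 20 did not pass (median 0.37, beside 0.01), and at 12 h 1 rose, 3 fell and 24 did not pass (median -0.12). Smad9, a BMP-activated SMAD, rose by 4.56 ± 0.35 at 6 h (edgeR adjusted p = 3.4e-07), and Id4, a BMP target, rose by 2.96 ± 0.61 (0.0023). The vehicle level of both was itself lower at 6 h than at 2 h, at -3.72 ± 0.34 for Smad9 and -2.58 ± 0.62 for Id4 (log2). Neither passed at 12 h (Smad9 1.02, edgeR adjusted p = 0.098, and Id4 0.17, 0.96). Bmp4 was the ligand that fell at 6 h, by 1.13 ± 0.32 (edgeR adjusted p = 0.017), and 3 of 26 alternatives did not keep the call (up to 0.082). Vehicle levels of this list differed too, with 19 of 28 lower and 1 higher in DMSO at 6 h than at 2 h, where 25.0% of all tested genes were called lower and 24.6% higher. Libraries of 2 h and 6 h also differed by transcript length, and its part in the vehicle differences of any list was not tested.

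Daam2 and Kif26b belong with non-canonical Wnt signalling, of which 26 of 27 genes were tested. At 6 h 7 rose, 4 fell and 15 did not pass (median 0.08, beside 0.01), and at 12 h 1 rose, 4 fell and 21 did not pass. The cadherin Celsr2 had 45 reads in thapsigargin against 3 in DMSO at 6 h, a ratio of 13.0 with an exact counting interval of 4.19 to 65.6 (edgeR adjusted p = 0.013, and 0.059 or 0.055 without replicate 1 or 2 of DMSO at 6 h). Wnt11, a ligand of this branch, rose by 3.01 ± 0.49 (edgeR adjusted p = 3.4e-04). The receptor Fzd2 fell by 1.73 ± 0.26 (edgeR adjusted p = 1.6e-04) and the co-receptor Ptk7 by 1.65 ± 0.46 (0.017), and the call of Ptk7 was lost in 5 of 26 alternatives (up to 0.094). Between vehicle groups, 11 of the 26 were called lower in DMSO at 6 h than at 2 h, among them Wnt11 (-1.73 ± 0.47, log2). The 1 called higher was Fzd2 (0.96 ± 0.25).

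Of the potassium channels listed for Kcnj2, 15 of 26 were tested. At 6 h 5 rose, 2 fell and 8 did not pass (median 0.16), and at 12 h 2 rose, 2 fell and 11 did not pass. Kcnc4 had 208 reads in thapsigargin and none in DMSO at 6 h, at least 60.3-fold higher by the floor of 3 counts over the group (edgeR adjusted p = 5.1e-04). Kcnma1, the calcium-activated channel BK, had 100 reads in thapsigargin and none in DMSO at 6 h, at least 29.0-fold higher (1.2e-04). Kcnj12, given above, was among those that fell. Of the progestin and adiponectin receptors listed for Paqr7, 8 of 12 were tested, and at 6 h 1 rose, 2 fell and 5 did not pass (median -0.26), and at 12 h 2 rose, 3 fell and 3 did not pass. Paqr3 rose by 1.96 ± 0.53 (edgeR adjusted p = 0.014, and 0.11 or 0.058 without replicate 1 of thapsigargin or replicate 3 of DMSO at 6 h). Paqr4 fell by 1.54 ± 0.21 (edgeR adjusted p = 7.1e-05) and Mmd by 1.50 ± 0.18 (2.1e-05), and both were also lower at 12 h (-2.49 and -2.66). Between vehicle groups, 4 of the 15 channels were called higher and 3 lower in DMSO at 6 h than at 2 h. Of the 8 receptors, 2 were called lower there and none higher.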

How the data were processed

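Read counts per gene, 1 file per library, were deposited by the authors for 19 poly(A)-selected libraries. Per the submitters' processing notes, Trim Galore, STAR 2.5.3a, bedtools 2.31.0, DESeq2 and the build mm10 were used; counter, strandedness and gene annotation were not given in the sources used here. Identifiers (55401) were matched to GENCODE M21 on GRCm38 (55141 by base identifier). Reads assigned to no gene (13.7% to 28.7%) were left out. Counts were fitted with edgeR 4.0.16 (quasi-likelihood, 7 group means, TMM, filterByExpr, 18039 genes, Benjamini-Hochberg over all) in R 4.3.3, after a test on simulated data. A fold threshold of 2 and an adjusted p under 0.05 were used, and Pearson's r used log2(CPM + 0.5). The members and lists were chosen with earlier results of these data known, so no p is given for members in any comparison, including the planned tests between vehicle groups, whose levels entered that choice. Named were all members and tested relatives, up to 2 called genes per direction of each list at 6 h, the 6 genes most like the members, and Ddit3 and Trib3 as a check of the drug. A list kept for Arhgap18 and 1 gene that this rule names are not reported here. Replicate numbers did not pair the libraries. Alternatives were total-count scaling, DESeq2 size factors, DESeq2 1.42.0, no filter, offsets for transcript length, a replicate block and leaving out libraries. No file or sample column was left unmapped.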

Additional observations from a re-analysis of the deposited data

Results flagged for a closer look

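The response of Spon1, the closest relative of Spon2, differed between 6 h and 2 h of thapsigargin by 2.70 ± 0.61 on the log2 scale (edgeR adjusted p = 0.018 for the difference itself). Spon1 averaged 1.49 ± 0.202 CPM in thapsigargin against 2.81 ± 0.668 CPM in DMSO at 2 h, and 4.56 ± 1.66 CPM in thapsigargin against 1.32 ± 0.125 CPM in DMSO at 6 h (SD, n = 3 each). The call was lost under total-count scaling (edgeR adjusted p = 0.1) and without replicate 1 (0.062) or replicate 2 (0.052) of thapsigargin at 2 h, and leaving out any single library gave 2.36 to 2.87.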

How the results depend on the processing

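Of the member values recomputed under the alternatives, 2541 moved by less than 1 SD and 59 moved further, and the cause of these shifts was not tested. Most alternatives leave out 1 library, which many comparisons do not use, so the total does not measure how far scaling matters. Most of the 59 came under total-count scaling or length offsets. Members at least 2-fold lower numbered 0 to 1, 8 to 9 and 10 in all cases at 2, 6 and 12 h when any 1 library was left out, and those within 2-fold in recovery 7 to 8, 3 to 4 and 5 to 6 against DMSO of 2, 6 and 12 h. Length offsets left 4 within 2-fold of DMSO at 2 h. Calls of members between vehicle groups, planned with the same alternatives, are not given, because vehicle levels entered the choice of members. Genes called over the whole table moved more. Total-count scaling gave 518 (thapsigargin against DMSO, 2 h, 470 higher and 48 lower beside 543 and 273), 1546 (12 h), 17 and 2816 (recovery against DMSO at 6 and 12 h, the second 1156 higher and 1660 lower beside 3137 and 2657), 850 (DMSO at 12 h against 2 h), 321 and 30 (response at 6 h minus 2 h and at 12 h minus 6 h). It moved the median gene to 0.17 at 2 h, to -0.31 in recovery against DMSO at 12 h and to 0.25 between DMSO at 12 and 2 h. DESeq2 gave 1689 (2 h), 422 (recovery against DMSO at 6 h), 2015 (DMSO at 12 h against 2 h), 1566 and 425 (responses). Length offsets gave 103 (recovery against DMSO at 6 h) and 169 (response at 12 h minus 6 h). Without both libraries of high mitochondrial share there were 1859, 6588 and 4539 (2, 6 and 12 h), 377 (recovery against DMSO at 6 h), 10088 and 2251 (DMSO at 12 h against 6 and 2 h), 1975 and 732 (responses). Replicate numbers correlated at -0.608 to 0.391 and did not pair the libraries; the replicate block gave 3174 genes in recovery against DMSO at 12 h, beside 5794, and no other count moved by over 1.5 times. Leaving out 1 library gave 320 to 1901, 2897 to 5673 and 1124 to 3616 (drug, 2, 6 and 12 h), 3505 to 5356 (recovery against thapsigargin at 6 h), 7362 to 9791, 22 to 125 and 484 to 8155 (recovery against DMSO of 2, 6 and 12 h), 6169 to 10763, 1529 to 9104 and 430 to 2218 (DMSO at 6 against 2 h, 12 against 6 h and 12 against 2 h), and 421 to 1608 and 12 to 369 (responses). Most of the highest came without replicate 1 of recovery; the lowest at 12 h came without 1 of the 2 libraries of a group, where the lone library is assumed to vary like the others.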
